A study of Mus musculus with 26 samples.

Results

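The genes described here encode the SMC complexes of mouse embryonic stem cells and their main partners: Smc1a, Smc3, Rad21, Stag1, Stag2 and Nipbl of the cohesin pathway, Smc2 and Smc4 of condensin, Smc5 of the SMC5/6 complex, and Ctcf. Peaks of RNA 5-hydroxymethylcytosine (5hmC) were assigned to one of these 10 genes when the summit lay within the span of the gene in the GENCODE M1 annotation of the mm9 genome build. Over the 13 immunoprecipitated (IP) libraries, 377 of 56538 peaks were in the 10 genes. Overlapping intervals were merged, which left 85 of 23367 regions in these genes, and no summit of the 85 lay within the span of another annotated gene.

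The peaks come from hMeRIP-Seq, in which fragmented total RNA was immunoprecipitated with an anti-5hmC antibody and sequenced beside its own input. WT ESC (wild-type embryonic stem cells, n = 3), TKO ESC (stem cells with Tet1, Tet2 and Tet3 knocked out, n = 3) and WT EB (wild-type cells differentiated as embryoid bodies, with leukaemia inhibitory factor withheld for 4 days, n = 3) were compared. Tet2-KI ESC (n = 2) carry a tag at the C-terminus of the endogenous Tet2, and Tet2deltaRBD-KI ESC (n = 2) carry the same tag on a Tet2 without its RNA-binding domain. The knock-in lines were grown from picked clones, so an effect of the clone and of the domain cannot be told apart.

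Tet enzymes oxidise 5-methylcytosine to 5hmC. SMC proteins are ATPases that shape chromosomes: in each, the N- and C-terminal ends fold into a head that binds ATP, and a long coiled coil leads from the head to a hinge where the partner is bound. Smc1a and Smc3 form a ring that the kleisin Rad21 closes, Stag1 or Stag2 binds Rad21, Nipbl loads the ring onto DNA, and Ctcf is the zinc finger protein at which loop extrusion by cohesin is halted. Smc2 and Smc4 are the SMC pair of condensin, which compacts mitotic chromosomes, and Smc5 pairs with Smc6 in DNA repair. Coiled coils are rich in lysine and glutamate, amino acids whose codons are made of A and G only.

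The lists held 498 to 10383 peaks per library. Where a group had 3 replicates, replicate 1 gave its shortest list, and the sample descriptions of replicate 1 begin with 1608 or 1610, whereas those of replicates 2 and 3 begin with 1703. The sequencing depth is unknown, and a missing peak means that none passed the threshold of the authors' peak caller (q-value below 0.05), which depends on depth and on the level of the transcript as well as on 5hmC. In bulk RNA, fewer marked cells and less marked RNA per cell cannot be told apart. Peaks in Tet1 were listed in all 3 TKO ESC libraries and peaks in Tet2 in none, which does not check the genotype, because a deletion leaves the rest of a gene in place. Of 6 stem cell genes, 4 had a peak in any library, and of 6 early differentiation genes, 3 had one, so the lists give no check of the labelled cell state.

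The regions that carried peaks in the most libraries are printed here, at most 2 per gene, as the 200 bases centred on the median summit, 5′ to 3′ on the strand of the gene (mm9). Capitals mark runs of at least 8 purines (A or G), of which each window held at least 1. A region is named after the exon nearest to its median summit, counted in the coding transcript with the longest coding sequence.
Smc1a exon 15, chrX:148472143-148472342, + strand: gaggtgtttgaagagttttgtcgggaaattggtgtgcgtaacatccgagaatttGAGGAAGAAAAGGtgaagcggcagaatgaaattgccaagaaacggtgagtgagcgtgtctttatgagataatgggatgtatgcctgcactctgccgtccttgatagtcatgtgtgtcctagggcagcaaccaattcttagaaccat
Smc1a exon 16, chrX:148475793-148475992, + strand: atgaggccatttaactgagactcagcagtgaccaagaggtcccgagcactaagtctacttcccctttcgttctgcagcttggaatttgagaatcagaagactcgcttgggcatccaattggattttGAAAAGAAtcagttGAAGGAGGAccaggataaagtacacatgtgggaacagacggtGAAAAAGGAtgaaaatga
Smc3 exon 13, chr19:53699443-53699642, + strand: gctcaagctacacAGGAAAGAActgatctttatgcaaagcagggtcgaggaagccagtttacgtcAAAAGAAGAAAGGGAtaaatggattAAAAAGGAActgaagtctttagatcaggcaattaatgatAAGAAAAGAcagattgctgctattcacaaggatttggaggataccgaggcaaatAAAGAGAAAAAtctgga
Smc3 exon 24, chr19:53715419-53715618, + strand: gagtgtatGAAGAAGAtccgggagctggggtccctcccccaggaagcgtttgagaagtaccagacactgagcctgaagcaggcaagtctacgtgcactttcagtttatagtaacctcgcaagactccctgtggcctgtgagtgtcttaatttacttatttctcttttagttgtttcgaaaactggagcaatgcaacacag
Smc4 exon 10, chr3:68825231-68825430, + strand: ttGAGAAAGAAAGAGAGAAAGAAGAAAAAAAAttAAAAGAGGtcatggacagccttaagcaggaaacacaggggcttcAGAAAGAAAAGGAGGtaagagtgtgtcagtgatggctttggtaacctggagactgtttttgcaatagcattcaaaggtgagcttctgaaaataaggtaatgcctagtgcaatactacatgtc
Smc2 exon 18, chr4:52482699-52482898, + strand: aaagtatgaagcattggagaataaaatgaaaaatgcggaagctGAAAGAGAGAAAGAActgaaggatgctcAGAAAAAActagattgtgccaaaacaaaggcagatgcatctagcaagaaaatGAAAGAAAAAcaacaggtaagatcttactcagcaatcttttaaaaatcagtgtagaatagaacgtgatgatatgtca
Smc5 exon 7, chr19:23331942-23332141, - strand: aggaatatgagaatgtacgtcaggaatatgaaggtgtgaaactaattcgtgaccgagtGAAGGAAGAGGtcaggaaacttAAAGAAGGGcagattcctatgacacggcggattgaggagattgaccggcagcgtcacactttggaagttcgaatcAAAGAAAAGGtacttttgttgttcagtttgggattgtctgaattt
Stag1 intron 22, chr9:100816020-100816219, + strand: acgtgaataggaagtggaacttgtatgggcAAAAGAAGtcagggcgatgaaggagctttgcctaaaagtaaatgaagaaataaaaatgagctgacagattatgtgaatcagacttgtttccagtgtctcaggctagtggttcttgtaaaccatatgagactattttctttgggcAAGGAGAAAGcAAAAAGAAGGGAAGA

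These windows show the kinds of site that recurred. The Smc3 exon 13 window lay wholly in coding sequence, whereas those at Smc1a exon 15, Smc4 exon 10 and Smc2 exon 18 ran from the exon across its 3′ end into the intron. The window at Smc3 exon 24 covered a short intron with coding sequence on either side. In Smc4 exon 10 an unbroken run of 30 purines stood near the start of the window. The Stag1 window was intronic throughout and lay 6984 bases past exon 22. Purines made up 50.5% of the window at Smc3 exon 24 and 69.0% of that at Smc2 exon 18, the lowest and the highest of the 8.

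The SMC genes held most of the peaks. Smc1a, Smc3, Smc2, Smc4 and Smc5 together had 325 peaks, 86.2% of the 377, although their spans add up to 235858 bp against 717367 bp for the other genes of the set. They had 3 to 53 peaks per library and at least 1 in all 13 libraries, whereas Rad21, Stag1, Stag2, Nipbl and Ctcf had 52 peaks in 10 libraries, with 0 to 11 per library. Per kilobase of spliced transcript, summed over libraries, the SMC genes had 7.68 exonic peaks and the other genes 0.490. Transcript levels were not measured here, and their part in this difference was not tested.

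**Figure D1:**
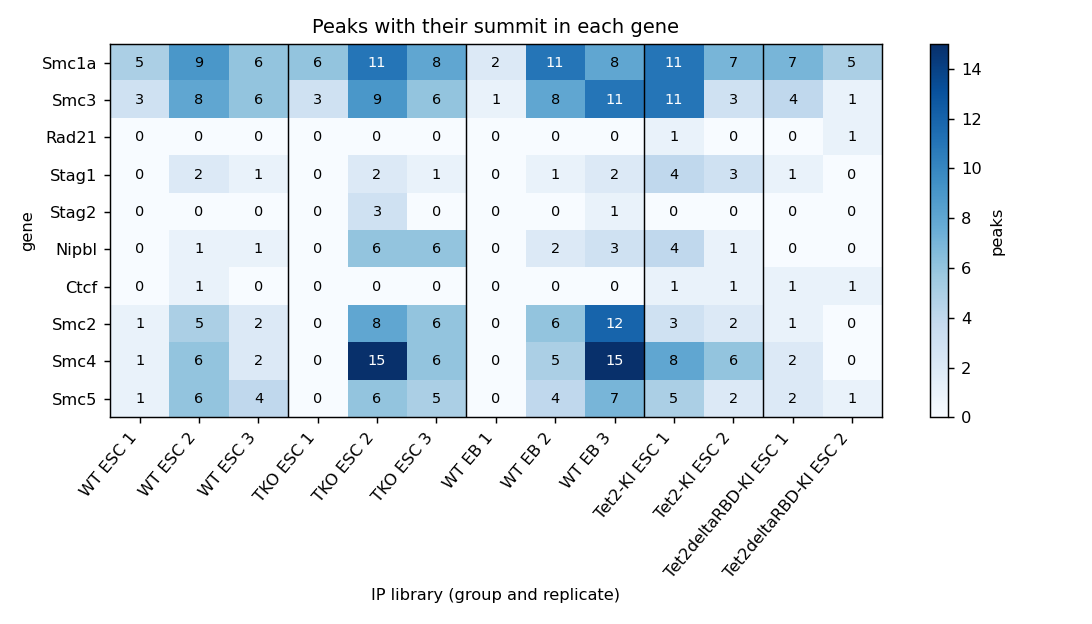
Number of peaks whose summit lies in each of the 10 genes (rows), in each of the 13 IP libraries (columns, by group and replicate, with black lines between groups); the colour scale repeats the printed count. Smc1a and Smc3 have a peak in every library, and Rad21 and Stag2 have peaks in 2 libraries each.

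Smc1a (chrX:148450971-148497237) had the most peaks, 96. Replicates 1 to 3 of WT ESC had 5, 9 and 6 of them, those of TKO ESC 6, 11 and 8, and those of WT EB 2, 11 and 8. The 2 Tet2-KI ESC libraries had 11 and 7 and the 2 Tet2deltaRBD-KI ESC libraries 7 and 5. Smc3 (chr19:53674886-53720323) followed with 74 peaks: 3, 8 and 6 for WT ESC, 3, 9 and 6 for TKO ESC, 1, 8 and 11 for WT EB, 11 and 3 for Tet2-KI ESC, and 4 and 1 for Tet2deltaRBD-KI ESC. For both genes, the ranges of all 5 groups overlapped. Smc1a and Smc3 were among the 77 genes with a peak in all 13 libraries, 1.1% of the 6994 protein-coding genes with a peak in any library. By number of peaks, 8 coding genes had at least as many as Smc1a and 25 at least as many as Smc3, each gene itself included.

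The condensin genes Smc2 (chr4:52452115-52501237) and Smc4 (chr3:68808660-68838545) had 46 and 66 peaks, each in 10 libraries. Smc4 had 1, 6 and 2 peaks in the WT ESC libraries, 0, 15 and 6 in those of TKO ESC, 0, 5 and 15 in those of WT EB, 8 and 6 in Tet2-KI ESC, and 2 and 0 in Tet2deltaRBD-KI ESC. Smc2 had 1, 5 and 2 peaks in the WT ESC libraries, 0, 8 and 6 in those of TKO ESC, 0, 6 and 12 in those of WT EB, 3 and 2 in Tet2-KI ESC, and 1 and 0 in Tet2deltaRBD-KI ESC. Both genes were without a peak in replicate 1 of TKO ESC and WT EB and in Tet2deltaRBD-KI ESC replicate 2, and both were highest in replicate 2 of TKO ESC and replicate 3 of WT EB. Smc5 (chr19:23283224-23348367) had 43 peaks in 11 libraries, and its mean was the same in the groups of 3, at 3.67 ± 2.52 (WT ESC), 3.67 ± 3.21 (TKO ESC) and 3.67 ± 3.51 (WT EB) peaks per library (SD, n = 3).

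Of the genes that encode no SMC protein, the cohesin loader Nipbl (chr15:8241225-8394463) had the most peaks, 24 in 8 libraries. Its counts were 0, 1 and 1 for WT ESC, 0, 6 and 6 for TKO ESC, 0, 2 and 3 for WT EB, and 4 and 1 for Tet2-KI ESC, with none for Tet2deltaRBD-KI ESC. In replicates 2 and 3 TKO ESC was above WT ESC and WT EB, and replicate 1 of these 3 groups had no Nipbl peak. Stag1 (chr9:100498217-100858964), which has the longest span of the set at 360748 bp, had 17 peaks in 9 libraries, all of them in introns of its coding transcripts. The Stag1 counts were 0, 2 and 1 for WT ESC, 0, 2 and 1 for TKO ESC, and 0, 1 and 2 for WT EB. They were 4 and 3 for Tet2-KI ESC and 1 and 0 for Tet2deltaRBD-KI ESC, so both Tet2-KI ESC libraries were above every other library. This was not tested. Ctcf (chr8:108160468-108206822) had 5 peaks in 5 libraries, Stag2 (chrX:39502494-39630362) had 4 in 2 libraries and Rad21 (chr15:51794151-51823306) had 2 in 2 libraries. The ring thus divided by subunit: 96 and 74 peaks in its SMC genes against 2 in the kleisin gene. At 0 to 3 peaks per library, the groups cannot be ordered in Rad21, Stag2 or Ctcf.

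Exonic peaks of the 10 genes were in coding sequence. Of the 377 summits, 189 lay in coding sequence, 188 in introns of coding transcripts and 0 in a UTR. Of the 15254 exonic peaks in all coding genes 74.2% lay in coding sequence. Some of the intronic summits lay in exons of other transcripts of the gene, such as 8 of 13 summits at Smc1a exon 15. The exonic share averaged 52.6% ± 10.3 over libraries (SD, n = 13), and it was higher than that of all peaks in coding genes in each of the 13 libraries: by library it ran from 38.9% to 72.7% in these genes and from 23.8% to 50.5% in all coding genes. With exons of all transcripts of a gene counted, the mean was 61.9% ± 15.1 (SD, n = 13). As 1 value per merged region, taken at its median summit, the exonic share was 41.2%. By gene it was 60.4% in Smc1a, 53.0% in Smc4, 51.4% in Smc3, 50.0% in Smc2 and in Nipbl, 48.8% in Smc5, and 0 in Stag1 and Rad21.

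The intronic summits lay close to exons. In the SMC genes, 141 of 150 intronic summits (94.0%) were within 200 bp of an exon of a coding transcript, at a median distance of 27.0 bp, against 24.9% and 1590 bp for the 31160 intronic peaks of all coding genes. Over the 10 genes, 82 such summits lay past the 3′ end of the exon and 72 before its 5′ end, so both sides of exons were represented. With any base of the 200 bp interval counted in place of the summit, the exonic share rose to a mean of 91.1% ± 7.08 (SD, n = 13). In the other genes 13 of 38 intronic summits (34.2%) lay within 200 bp of an exon. The 5 regions of Stag1 were 1054 to 6984 bases from the nearest exon, and 3 of the 8 regions of Nipbl lay in its first intron, 10666 to 16252 bases past exon 1.

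Within the coding sequence the median summits of the SMC regions left the first part free, except for 1 region of Smc5. An intronic summit was given the last codon before it. Counted from the start codon, the 11 regions of Smc1a lay between codons 259 and 960 of 1233 (stop codon included), the 13 of Smc3 between 226 and 1099 of 1217, the 13 of Smc2 between 201 and 1090 of 1232, and the 15 of Smc4 between 280 and 1097 of 1286. In Smc5 1 region was at codon 12, in exon 1 and in 1 library, and the last was at codon 923 of 1101. Before codon 200, where the N-terminal part of the head is encoded, there were 0 median summits of regions in Smc1a, Smc3, Smc2 and Smc4. As an interval, the Smc1a exon 5 region also overlapped the exon before it.

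**Figure D2:**
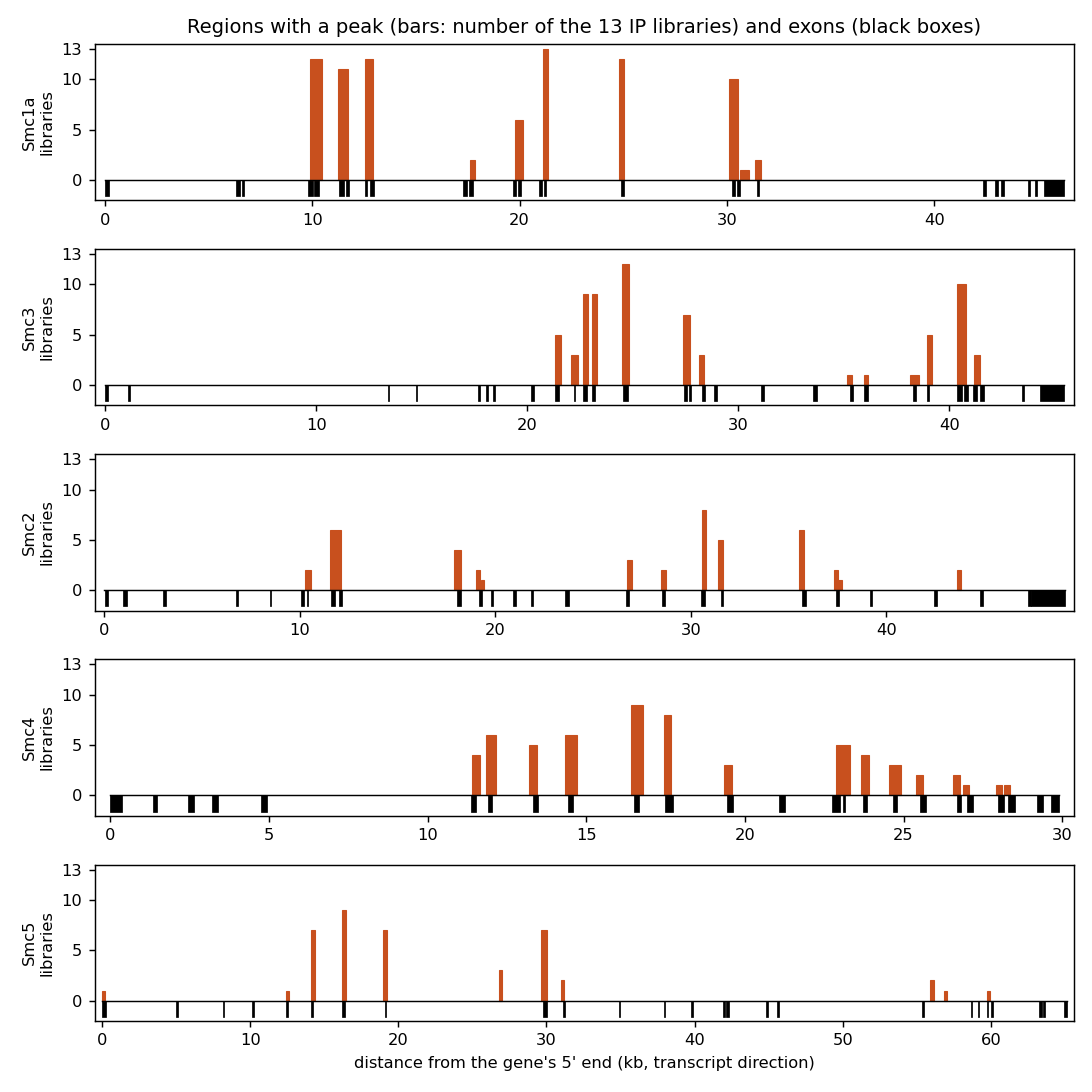
Maps of the 5 SMC genes from their 5′ end (x axis, kb in the direction of transcription), with the exons of the coding transcript with the longest coding sequence as black boxes and each region as a bar whose height is the number of the 13 libraries with a peak in it. Most bars stand over or beside exons, with 5 exceptions whose median summit lies 346 to 2858 bases from one in Smc1a, Smc2 and Smc5, and the tallest is at Smc1a exon 15 with 13 libraries.

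The exons under the peaks were rich in purines. In the 5 SMC genes, 31 of 127 coding exons overlapped a region present in 6 or more libraries, and their purine content on the coding strand ran from 59.8% to 76.3%, with a median of 66.4%. The 63 coding exons without a region had a median of 53.1% (range 40% to 68.5%), and the 33 with a region in 1 to 5 libraries had 62.4%. Exons were taken whole, with any untranslated part. The last exons of Smc1a, Smc3 and Smc2 (969, 1125 and 1732 bases), at 48.3%, 46.7% and 47.5%, were among those without a region. Median lengths were 154, 139 and 155 bases. The hexamer GAAGAA was found in 18 of the 31 recurrent exons (58.1%), in 9 of the 33 with a region in 1 to 5 libraries (27.3%) and in 17 of the 63 without a region (27.0%). Cytosine, the base that 5hmC derives from, made up a median of 15.8% of the recurrent exons and 19.6% of those without a region. In the other genes, 126 of 135 coding exons had no region, with a median purine content of 54.5%.

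**Figure D3:**
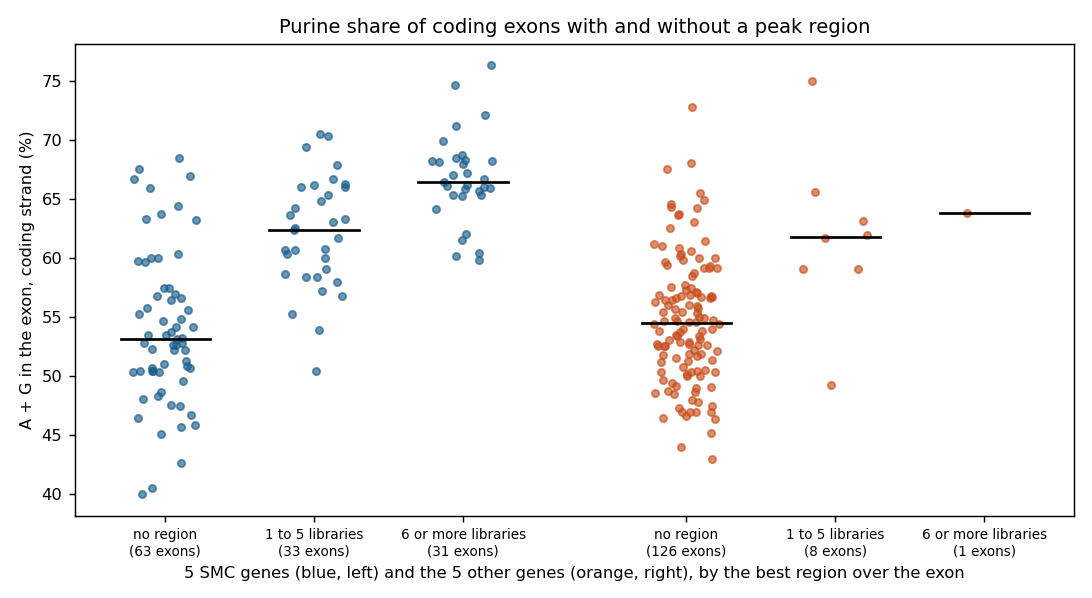
Purine content (A + G, % of bases on the coding strand) of each coding exon of the 5 SMC genes (left) and of the 5 other genes (right), by the number of libraries in the best region over the exon; points are exons, shifted sideways at random, and black lines are medians. The 31 SMC exons with a region in 6 or more libraries all lie at or above 59.8%. Exons are whole, with any untranslated part.

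Among whole coding sequences, those of the SMC genes were the richest in purines of the set. That of Smc1a was 61.0% purine, at the 97.5 percentile of 21497 coding genes with a coding sequence of at least 300 bases, whose median was 51.7%. Smc3 was at the 97.2 percentile, Smc4 at 95.5, Smc2 at 94.8 and Smc5 at 92.6. Ctcf (91.3) and Rad21 (90.2), with 5 and 2 peaks, were close to Smc5 in composition, and Nipbl, Stag2 and Stag1 were at 85.7, 84.7 and 81.5. A high purine content was therefore found in members with many peaks and in members with few.

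Pooled over exons and introns, the purine content of the 377 peaks was close to that of peaks elsewhere, with a median over the 200 bp of 58.5% against 59.0% in the 46414 peaks of all coding genes. Exonic peaks of the set had a median of 60% against 58.5% for all exonic peaks, and intronic ones 56.5% against 59.5%. A run of at least 8 purines was in 84.4% of the peaks of the set and in 77.9% of all, and a run of at least 15 in 23.6% and 21.5%. They held more A (median 34.5% against 29.5%) and less G (24.0% against 29.5%), and cytosine was 16% against 16.5%. GAAGAA, counted on the strand of the gene with overlapping matches, was in 36.3% of the peaks of the set and in 22.1% of all peaks in coding genes, and its reverse complement TTCTTC was in 5.84% and 4.89%. GGAGGA was in 17.2% and 20.3%. Counted once per merged region, GAAGAA was in 23 of the 85 regions, or 27.1%, and in 18.4% of the 18819 regions of all coding genes. A tandem repeat (a run of at least 18 bases of a unit of 1 to 4 bases, 20 for units of 4) was in 0.531% of the peaks of the set, 0 of them in a region of an SMC gene, against 7.48% of all. Peaks of 1 region share their sequence, so these shares describe the lists and are not independent observations.

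In Smc1a, 6 regions had a peak in 10 or more libraries. At exon 5 (chrX:148460882-148461423) the fold enrichment was 14.3, 9.84 and 11.8 in WT ESC and 9, 14.7 and 18.3 in TKO ESC. In WT EB replicates 2 and 3 it was 8.46 and 15.5, and replicate 1 had no peak. The ranges of the 3 groups overlapped at this exon. At exon 9 (chrX:148463526-148463882) it was 6.53, 14.3 and 16.8 in WT ESC, 4.69, 19.5 and 19.1 with the Tet genes knocked out, and 18.3 and 22.1 in WT EB replicates 2 and 3. Replicate 1 was the lowest of its group there in both WT ESC and TKO ESC. The exon 16 region (chrX:148475782-148476005) lacked a peak in WT ESC replicate 1 only, and its values of 8.55 and 18.1 in the other WT ESC libraries lay between the 5.67 and 25.7 of WT EB. Its TKO ESC values were 21.5, 26.8 and 13, of which the lowest was within the WT ESC range and the others above it.

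Smc3 had 2 regions in 10 or more libraries, at exons 13 and 24. At exon 24 (chr19:53715271-53715660) WT ESC replicates 2 and 3 had 5.41 and 6.18 and the same replicates of TKO ESC had 19.2 and 7.41. All 3 WT EB libraries had a peak, at 6.80, 11.0 and 15.0, above both WT ESC values. Exon 12 (chr19:53697967-53698212) had 8.45 and 11.8 in WT ESC, 6.21, 23.2 and 13 in TKO ESC, and 9.08 and 25.6 in WT EB. A region at exon 26 (chr19:53716062-53716348) was found in the knock-in libraries only, in both of Tet2-KI ESC and 1 of Tet2deltaRBD-KI ESC.

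The partners of the ring had few regions to describe. Rad21, the kleisin, had 1 region 7 bases past exon 5 and 1 in its first intron, each in 1 library. Stag2 had its leading region 37 bases before exon 8, at 7.35 in TKO ESC replicate 2 and 8.12 in WT EB replicate 3. In Stag1, the region in intron 22 (chr9:100815997-100816257) recurred in 9 libraries, with values of 7.70 and 9.64 in WT ESC, 10.4 and 10.3 in TKO ESC, and 5.32 and 6.52 in WT EB. It was the only region of the 20 seen in 7 or more libraries whose median summit lay more than 200 bp from an exon. In Ctcf, 1 of 4 regions lay in coding sequence, at exon 3, and it was found in 1 library.

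In condensin and Smc5, peaks were absent from replicate 1 of TKO ESC and WT EB at every region, so values come from the other replicates. Smc4 exon 11 (chr3:68826105-68826336) had 18.7 and 11.3 in WT ESC, 19.9 and 28.6 in TKO ESC, and 20.9 and 28.8 in WT EB. Smc5 exon 9 (chr19:23318321-23318725) had 8.59 and 18.6 in WT ESC, and TKO ESC lay lower or within that range at 11.1 and 7.32, with WT EB at 17.1 and 18.9. Smc5 exon 7 (chr19:23331917-23332170), with 9.60 and 7.30 against 6.79 and 3.99, was the only region with both TKO ESC values below both WT ESC values in replicates 2 and 3. The direction of the values was thus not shared by all members.

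WT ESC and TKO ESC were compared to ask which regions lose their peak without Tet enzymes. In these genes 7 regions had a peak in all 3 WT ESC libraries, 4 in Smc1a (near exons 5, 6, 9 and 15) and 3 in Smc3 (exons 9, 11 and 13). Only the exon 9 region of Smc3, chr19:53696227-53696478, was without a peak in the TKO ESC libraries, 1 of 7, where 32.2% of the 1532 regions replicated in WT ESC had none. Its fold enrichment of IP over input at the summit was 5.81, 6.76 and 9.01 in WT ESC. It had peaks again in WT EB replicates 2 and 3, at 17.7 and 14.6, above all 3 WT ESC values, and none in the 4 knock-in libraries. The other 6 regions had a peak in every TKO ESC library.

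In TKO ESC, 8 of the 346 regions with a peak in all 3 libraries were in Smc1a and Smc3, and 0 of the 8 were without a WT ESC peak, as were only 6 of the 346. These counts rest on replicate 1, whose TKO ESC list held 964 peaks; without WT ESC replicate 1 the 7 regions replicated in WT ESC became 20. With replicates 2 and 3 alone, 20 regions of the set were present in both WT ESC libraries, 32 in both TKO ESC libraries and 30 in both WT EB libraries, out of 2984, 1694 and 1226 regions in all. Of the 20 WT ESC regions, 1 was absent from both TKO ESC libraries, against 44.3% of the 2984. Present in both TKO ESC libraries and in neither WT ESC library were 4 regions: at exon 16 of Smc2, at exon 6 of Smc4 and at exons 11 and 12 of Nipbl. They were 12.5% of the 32, below the 19.8% of the 1694 regions of all genes that were found in both TKO ESC libraries and in neither WT ESC library.

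The fold enrichment of WT ESC and TKO ESC overlapped at the regions with a value in all 6 libraries. At Smc1a exon 15, the only region of the set with a peak in all 13 libraries and 1 of 58 such regions in the series, the values were 9.48, 6.55 and 12.2 in WT ESC and 10.1, 37.2 and 13 in TKO ESC. The TKO ESC values began within the WT ESC range and ended at 37.2 in replicate 2. The log2 difference was 0.90 higher in TKO ESC (two-sided exact permutation p = 0.2, Benjamini-Hochberg adjusted p = 0.962 over 283 regions). Without TKO ESC replicate 2 it was 0.33, the lowest of 0.33 to 1.27 with 1 library left out. At Smc3 exon 13 the values were 2.96, 8.59 and 10.1 in WT ESC and 4.64, 18.9 and 24.6 in TKO ESC, 1.02 higher on the log2 scale (exact p = 0.3, adjusted p = 0.962). This difference ran from 0.47 without WT ESC replicate 1 to 1.76 without TKO ESC replicate 1. The other 4 regions of this kind gave exact p of 0.4 to 1 and log2 differences of -0.30 to 0.45. Within same-numbered pairs TKO ESC was higher in 3 of 3 at Smc1a exon 15 and at Smc3 exon 13, where the exact test with the replicate block gave p = 0.25, the smallest that 3 pairs allow. The groups overlapped at all 6, whereas over the 283 regions they were apart in 9.54%. An exact test of 3 against 3 cannot give a p below 0.1.

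**Figure D4:**
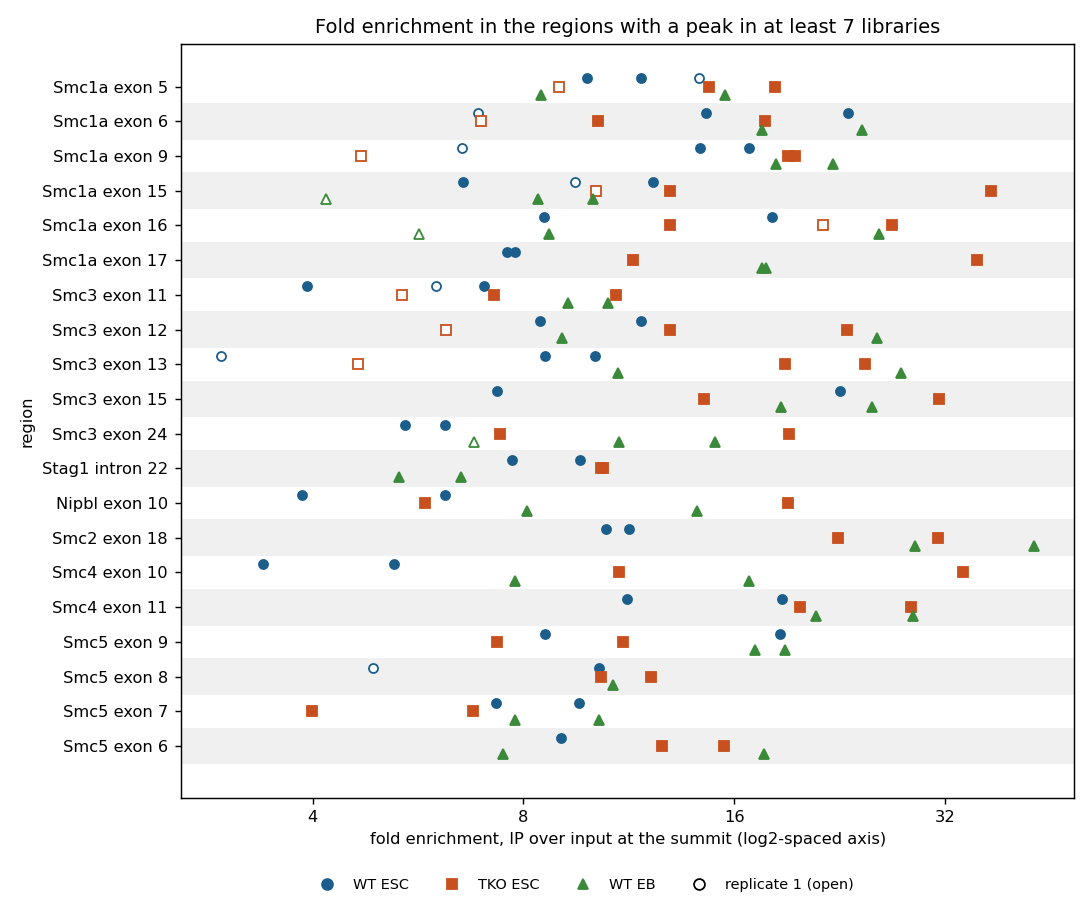
Fold enrichment of IP over input at the summit (x axis, spaced in log2 units) for the 20 regions with a peak in at least 7 libraries, in WT ESC (blue circles), TKO ESC (orange squares) and WT EB (green triangles); open symbols are replicate 1, and libraries without a peak have no symbol. At Smc2 exon 18 the TKO ESC values of 31.2 and 22.5 lie above the WT ESC values of 10.5 and 11.3, and at Smc5 exon 7 the TKO ESC values of 6.79 and 3.99 lie below those of WT ESC.

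Within replicates 2 and 3 the values of TKO ESC tended to be the higher ones. Of 19 regions with a value in these 4 libraries, 13 had both TKO ESC values above both WT ESC values, where 30.1% of 930 regions did, and 1 had both below (Smc5 exon 7). The median log2 difference, TKO ESC minus WT ESC, was 0.76 over the 19 and 0.21 over the 930. The median fold enrichment of whole lists moved too, at 5.56 and 5.55 in replicates 2 and 3 of WT ESC and 7.28 and 6.52 in those of TKO ESC, and its part in the difference was not tested. At Smc2 exon 18, 10.5 and 11.3 in WT ESC stood against 31.2 and 22.5 in TKO ESC, a gap of the same direction in both replicates. At Smc4 exon 10, 5.22 and 3.40 stood against 34.0 and 10.9, and at Smc1a exon 17, 7.78 and 7.58 stood against 35.6 and 11.5. Nipbl exon 10, a coding exon of 1608 bases, had 3.87 and 6.18 against 19.1 and 5.78, which overlap. TKO ESC replicate 2 held the highest value of the 4 at each of Smc2 exon 18, Smc4 exon 10, Smc1a exon 17 and Nipbl exon 10. These counts of 2 libraries against 2 were not tested and describe these libraries. The 13 regions lay in Smc1a, Smc3, Smc2, Smc4 and Stag1 only. The 930 regions were not restricted to coding sequence, and no share for coding sequence alone was computed. A shift of coding sequence in general and one of these genes therefore cannot be told apart here.

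WT ESC and WT EB were compared to ask what happens to the peaks on differentiation. Each of the 7 regions replicated in WT ESC had a peak in at least 1 WT EB library, so 0 of 7 were lost, where 54.9% of the 1532 regions were. WT EB replicate 1, with 498 peaks, held 3 peaks of the set: at Smc1a exons 15 and 16 and at Smc3 exon 24, which were also the 3 regions replicated in WT EB. The only region with values in all 6 libraries was Smc1a exon 15, at 4.18, 8.39 and 10.1 in WT EB, within or below the 6.55 to 12.2 of WT ESC (exact p = 0.6, adjusted p = 0.842 over 94 regions). Over those 94 regions the groups were apart in 19.1%.

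In replicates 2 and 3, the 20 regions with a value in both groups had a median log2 difference, WT EB minus WT ESC, of 0.75, against 0.19 over 641 regions. The median fold enrichment of whole lists was higher as well, at 7.24 and 7.07 in these WT EB libraries against 5.56 and 5.55 in WT ESC, and its part in the difference was not tested. Both WT EB values were above both WT ESC values in 11 of the 20, where 33.1% of the 641 were, and both were below in 1 (Stag1 intron 22, at 5.32 and 6.52 against 7.70 and 9.64). Smc2 exon 18 reached 28.9 and 42.9 in WT EB and Smc4 exon 11 20.9 and 28.8, against 18.7 and 11.3 in WT ESC at the latter. TKO ESC and WT EB were compared with the same WT ESC libraries, so low WT ESC values enter both comparisons. The 641 regions were not restricted to coding sequence, and no share for coding sequence alone was computed. Within replicates 2 and 3, 0 of the 20 WT ESC regions were absent from both WT EB libraries, against 63.9% of 2984.

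The 10 genes took a larger share of the TKO ESC and WT EB lists than of the WT ESC lists. Per 1000 peaks of a list, they held 2.50, 5.34 and 3.39 in the WT ESC libraries, 9.34, 13.9 and 11.6 in those of TKO ESC, and 6.02, 20.2 and 16.7 in those of WT EB. On that base every library of the latter groups was above every WT ESC library. Per 1000 peaks in coding genes, TKO ESC (11.5 to 15.5) was above WT ESC (3.68 to 7.15). WT EB replicate 1, at 6.59, was then below WT ESC replicate 2. With the 6 lists of replicates 2 and 3 shortened to their 1831 peaks of highest fold enrichment, the genes had 20 and 17 peaks (WT ESC), 39 and 32 (TKO ESC), and 37 and 41 (WT EB). Coding sequence as a whole moved the same way: it held 14.3% and 12.6% of the shortened WT ESC lists, 24.9% and 21.8% of the TKO ESC lists and 35.9% and 41.1% of the WT EB lists. Of the coding-sequence peaks in the shortened lists, the 10 genes made up 2.67% and 3.90% (WT ESC), 3.95% and 3.01% (TKO ESC), and 3.20% and 3.19% (WT EB), so on that base the groups overlapped. In whole lists the 10 genes made up 1.68% and 1.30% of the coding-sequence peaks in replicates 2 and 3 of WT ESC, 2.45% and 2.44% in those of TKO ESC, and 3.20% and 2.43% in those of WT EB, without overlap between WT ESC and either other group. With replicate 1 of whole lists, at 1.15% (WT ESC), 1.67% (TKO ESC) and 1.46% (WT EB), the ranges of WT ESC and each other group overlapped. Within the 3 same-numbered pairs, whole lists gave the higher share in TKO ESC in 3 of 3. The shortened lists gave it in replicate 2 and the lower one in replicate 3, at 9 of 231 peaks in WT ESC and 12 of 399 in TKO ESC. The order thus differed between whole lists and lists cut by fold enrichment, and the cause was not tested.

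**Figure D5:**
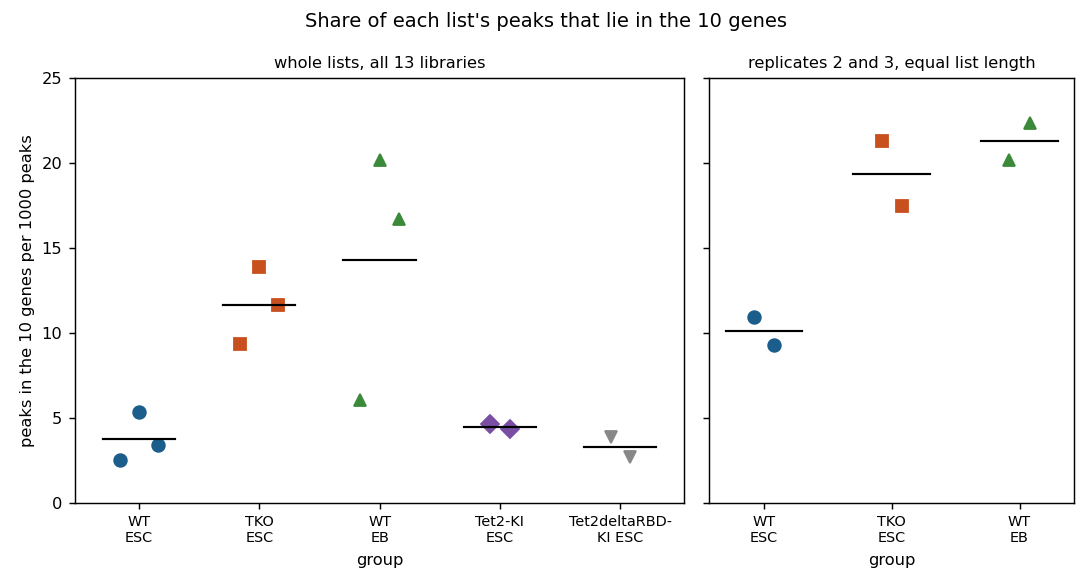
Peaks in the 10 genes per 1000 peaks of a list (y axis), by group (x axis); points are libraries and black lines are group means. Left, whole lists of the 13 libraries; right, replicates 2 and 3 of 3 groups with each list shortened to 1831 peaks, where WT ESC lies at 10.9 and 9.28 and the other libraries between 17.5 and 22.4.

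Tet2-KI ESC and Tet2deltaRBD-KI ESC were compared to ask which peaks need the RNA-binding domain of Tet2. Of 19 regions with a peak in both Tet2-KI ESC libraries, 7 had none in Tet2deltaRBD-KI ESC, or 36.8%, close to the 35.6% of all 2999 regions replicated in Tet2-KI ESC. These were at exons 11, 15 and 16 of Smc4, exon 18 of Smc2, exon 8 of Smc5, and in introns 3 and 21 of Stag1. The count of 7 became 30 of 44 without Tet2-KI ESC replicate 2 and 13 of 19 without Tet2deltaRBD-KI ESC replicate 1. The share over all regions was not computed with these libraries left out. In Smc1a, the regions at exons 5, 9, 15, 16 and 17 had a peak in all 4 knock-in libraries, as had Smc3 exon 13. The share of the lists was 4.62 and 4.32 per 1000 peaks in Tet2-KI ESC and 3.88 and 2.71 in Tet2deltaRBD-KI ESC. Ctcf had the only region present in both Tet2deltaRBD-KI ESC libraries and in no other library, chr8:108161091-108161305, 571 bases past exon 1 of its coding transcript. The lists of these 4 libraries give positions only, so no fold enrichment could be compared.

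Of 29 genes that act with the members or are related to them, 16 had a peak in any library (55.2%). Of the 22372 coding genes 32.2% did, with every gene over a summit counted. Transcript level and gene length were not matched in this comparison. Of 15 other cohesin subunits and regulators, 7 had a peak in any library, among them Pds5a, a regulator of cohesin release (17 peaks in 10 libraries), and Wapal, the release factor itself (18 peaks in 5 libraries). Of the 6 non-SMC condensin subunits, 4 had a peak, with 11 peaks in all. Among the 7 genes of the SMC5/6 complex and other SMC-like proteins, 5 had a peak, and 2 resembled the SMC members in number: Smc6, the partner of Smc5, with 56 peaks in 9 libraries, and Rad50, a coiled-coil ATPase of DNA repair, with 50 in 11. The Ctcf paralogue Ctcfl had 0. Smc6 and Rad50 each had a region in 8 libraries, as many as the leading region of Smc2. None of these 29 genes had a region in 10 or more libraries, as 1.37% of all coding genes had, nor had the members other than Smc1a, with 6, and Smc3, with 2.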

How the data were processed

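hMeRIP-Seq peak lists of 13 IP libraries were used. Reads of low complexity and from rRNA or tRNA were discarded by the authors, who then used Trimmomatic, STAR (mm9, RefSeq transcripts) and MACS2 with the matching input as the control (versions not given in the sources used here). The deposited lists hold 200 bp intervals around summits and, for 9 libraries, the fold enrichment over input, a ratio that the authors' caller computed. No counts were used, so depth is unknown. Whether the libraries kept strand is not stated in the sources used here.

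Intervals overlapping by at least 1 bp were merged over the 13 libraries. A region was replicated in a group when every replicate had a peak. The highest fold enrichment of a library was taken per region, compared on the log2 scale by two-sided exact permutation with Benjamini-Hochberg adjustment over all regions with 6 values. Summits were placed on coding transcripts of GENCODE M1, and sequence was read from NCBIM37, the assembly of mm9 (99.7% of intervals were on its chromosomes), with Python 3.11.15, numpy 2.4.6, pysam 0.24.0 and matplotlib 3.10.9. The code was tested on simulated lists. Genes, gene lists and tests were chosen with earlier results of these data known. The regions described were those with a peak in every replicate of at least 1 group, or, for a gene with none, its region in the most libraries. Sequences were printed for the 8 of these in the most libraries, at most 2 per gene; other sites and genes were named after their values were seen. The study describes replicates as independent experiments. Same-numbered WT ESC and TKO ESC libraries deviated together only weakly (correlations 0.33, 0.13 and 0.12), and 4 of 6 correlated best with their own number. The main test was unpaired, and pairs by number were used in an alternative. The alternatives were stricter merging, interval overlap, higher fold enrichment, shortened lists, presence in 2 of 3 replicates, the 1703 libraries, a replicate block and leaving out each library.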

Additional observations from a re-analysis of the deposited data

How the results depend on the processing

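The counts of replicated regions depended on the shortest lists. The 7 regions replicated in WT ESC became 4 with only the upper part of each list by fold enrichment (above the median), 0 with the 9 lists shortened to 498 peaks, 21 with presence in at least 2 of 3 replicates and 20 with the 1703 libraries only, and ranged from 7 to 20 when 1 library was left out. The 1 of them without a TKO ESC peak became 0 with peaks above the median and with shortened lists, and stayed at 1 under every left-out library. The 19 regions replicated in Tet2-KI ESC ranged from 22 to 44, and the 7 without a Tet2deltaRBD-KI ESC peak from 7 to 30, when 1 library was left out. The exonic share, 52.6%, became 91.1% with any base of the interval in an exon, 61.9% with exons of all transcripts and 41.2% with 1 value per region. Per 1000 peaks, shortening the 1703 lists to 1831 peaks, an alternative chosen after seeing the data, gave 10.1 in WT ESC and 19.4 in TKO ESC, and peaks in protein-coding genes as the denominator gave 5.25 in Tet2-KI ESC. The causes were not tested beyond the construction of each alternative.

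The median log2 fold enrichment difference, TKO ESC minus WT ESC, was 0.32 over 6 regions, where all 283 regions had a median of -0.05, and 0.15 to 0.71 with 1 library left out. For WT EB it was -0.37 at 1 region, near the -0.30 of all 94 regions, 0.75 over 20 regions with the 1703 libraries only, and from -0.62 to 0.79 with 1 library left out, the last without WT EB replicate 1 over 7 regions. Single regions changed sign near 0: TKO ESC minus WT ESC became -0.36, -0.30 and -0.28 at Smc1a exon 9 (without WT ESC replicate 1, TKO ESC replicate 2 or TKO ESC replicate 3), 0.11 and 0.019 at Smc1a exon 6 (without WT ESC replicate 3 or TKO ESC replicate 1), and -0.039 at Smc1a exon 5 (without TKO ESC replicate 3), with ranges over left-out libraries of -0.36 to 0.73, -0.77 to 0.11 and -0.039 to 0.47, and WT EB minus WT ESC became 0.038 (1703 libraries) and 0.011 (without WT EB replicate 1) at Smc1a exon 15. With the replicate number as a block, the medians stayed at 0.32 and -0.37, and exact p ran from 0.25, the smallest that 3 pairs allow, to 1. Without the block p could not fall below 0.1, so these tests cannot show whether pairing changes a call. Same-numbered WT EB and WT ESC libraries did not all deviate together (correlations 0.29, 0.15 and -0.02), and 4 of 6 libraries correlated best with their own number. Depth is unknown, so an absent peak sets no limit on 5hmC.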
